A study of Mus musculus with 16 samples.

Results

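Thymocytes of 2 mouse strains carrying the same T cell receptor were compared after 16 h of peptide: 3 arrays of BDC2.5/NOD cells against 3 arrays of BDC2.5/B6g7 cells, chosen by their sample titles from a series of 16 arrays. The RNA came from CD4+CD8+ (double-positive) thymocytes of fetal thymic organ culture, where lobes of the fetal thymus grow outside the animal. All 6 arrays carried the BDC2.5 receptor transgene and had peptide, so strain was the labelled difference between them. The same 2 strains were also compared without peptide (3 BDC2.5/NOD arrays and 3 BDC2.5/B6g7 arrays) and in cells without the transgene (2 wild-type NOD arrays and 2 wild-type B6g7 arrays). NOD mice become diabetic through autoimmunity. B6g7 mice have the NOD haplotype of the major histocompatibility complex (MHC) on a C57BL/6 background. The labels give no name or dose of the peptide and no age of the fetuses, and leave unsaid whether the wild-type cultures had peptide. Nothing in the labels says that replicates were separate animals or lobes, so the p-values measure the spread between these arrays, which may be technical.

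Double-positive thymocytes rearrange and display their T cell receptor, and its affinity for self peptide on MHC decides their fate. A weak signal lets the cell mature, and a strong one triggers negative selection, in which nuclear receptors of the Nr4a family and the BH3-only protein Bim take part. BDC2.5 is a receptor from a CD4 T cell clone of a NOD mouse that recognises an islet antigen on the MHC class II molecule of NOD, which B6g7 mice share. In such a design both strains meet the peptide on the same MHC molecule, and the remainder of the genome differs.

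Each value is the deposited intensity of a probe set, a group of short oligonucleotides that reads a stretch of a transcript, in arbitrary units on a linear scale. Array medians lay between 54.7 and 59.1, and the table held no detection calls, so small intensities carry little certainty about the level. A probe set reads hybridisation to fixed sequences, so a different transcript level and a different base under the probes cannot be told apart between strains. Differences are log2 of BDC2.5/NOD over BDC2.5/B6g7 with the standard error of the limma fit after ±, and a probe set was called at a Benjamini-Hochberg adjusted p under 0.05 over all 12422 probe sets.

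Genes of the cells' labelled type were read first. At 16 h Cd4 read 231, 235 and 250 in BDC2.5/NOD arrays and 203, 209 and 158 in BDC2.5/B6g7 arrays. Cd8a read 2173, 2034 and 2539 in BDC2.5/NOD arrays and 1074, 2329 and 1861 in BDC2.5/B6g7 arrays. Dntt, which adds bases at receptor gene joints in immature thymocytes, read 2313, 1954 and 1916 in BDC2.5/NOD arrays and 2040, 1710 and 864 in BDC2.5/B6g7 arrays. All 3 genes lay above the array medians in all 6 arrays. Such levels in bulk RNA cannot tell double-positive cells from a mix of thymocytes. Cd8b1, the other CD8 chain, is given below.

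Some arrays stood apart in ways that strain did not explain. On the first principal component (57.9% of variance, over the 3000 probe sets that varied most) the 2 arrays numbered 3 at 16 h lay at 6.73 to 17.6, and the other 4 at -22.0 to -13.4. The 3' minus the 5' beta-actin probe set was 1.43 to 1.66 on the log2 scale in the arrays numbered 3, against 2.24 to 2.77 in the other 4. Each strain had 1 such array. Beyond that, BDC2.5/B6g7 array 3 had the highest mean log2 level of the interferon list at 16 h, 8.10 against 6.36 to 6.78 in the other 5 arrays. For the gene lists below, values without it are given beside those that it moves by more than 1.5 times.

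limma called 61 of 12422 probe sets at 16 h (0.491%), 15 higher (0.121%) and 46 lower (0.37%) in BDC2.5/NOD, and 705 (5.68%) had an unadjusted p under 0.05. Of these, 52 named 1 gene each (14 higher and 38 lower), 5 named several and 4 named none. In all 61 the 3 BDC2.5/NOD arrays lay wholly on 1 side of the 3 BDC2.5/B6g7 arrays, as did 11.8% of all probe sets. At least a 2-fold difference was measured in 11 of the 15 higher and 32 of the 46 lower. Sizes ran from 0.31 to 3.65 on the log2 scale, with a median of 1.19, where the median over all probe sets was 0.09. With the array number as a block, in 16 or in the 12 BDC2.5 arrays, the counts were 129 (1.04%) and 156 (1.26%), and all 61 were among them in both. The number of calls fell when any of the 6 arrays was left out, which also leaves fewer arrays in a group. It was 15 without BDC2.5/NOD array 1, 22 without BDC2.5/NOD array 3 and 31 without BDC2.5/NOD array 2. Without BDC2.5/B6g7 arrays 1, 2 and 3 it was 35, 42 and 41. In these fits 15 to 33 of the 61 stayed called, and 13 did so in all 6.

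**Figure D1:**
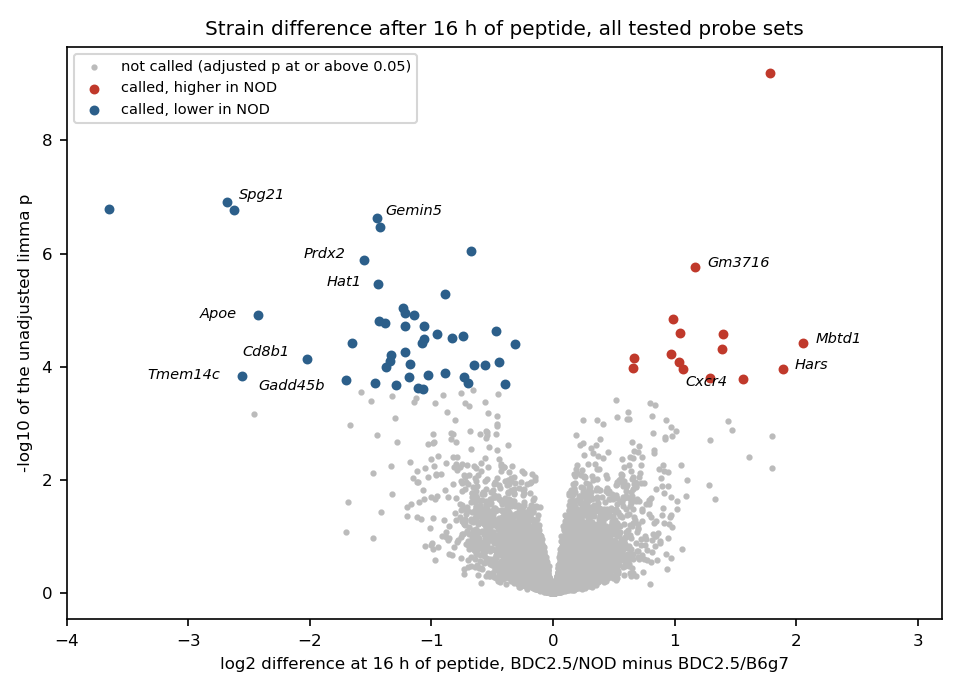
Strain difference at 16 h of peptide for all 12422 probe sets, with the log2 difference (BDC2.5/NOD minus BDC2.5/B6g7) across and -log10 of the unadjusted limma p up. Red points are the 15 probe sets called higher and blue points the 46 called lower in BDC2.5/NOD. Of the blue points, 32 were at least 2-fold lower.

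The called genes are described below by what their products do, a grouping made after the calls and not tested. Cd8b1, the CD8 beta chain that pairs with CD8 alpha on double-positive cells, read 489, 582 and 415 in BDC2.5/NOD arrays, against 1887, 3200 and 1308 in BDC2.5/B6g7 arrays. It was 4.06-fold lower in BDC2.5/NOD (log2 -2.02 ± 0.36, adjusted p = 0.0247, limma). The call was lost without any array but BDC2.5/B6g7 array 3, with adjusted p up to 0.129. Cd8a gave 0.42 ± 0.35 without passing. Spg21, whose product maspardin binds the tail of CD4, read 62.2, 68.2 and 36.4 in BDC2.5/NOD arrays, against 467, 317 and 276 in BDC2.5/B6g7 arrays. It was 6.42-fold lower (log2 -2.68 ± 0.27) and stayed called without any of the 6 arrays.

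Blk, a Src family kinase best known in B cells, read 40.5, 47.1 and 37.2 in BDC2.5/NOD arrays and 98.2, 113 and 112 in BDC2.5/B6g7 arrays (log2 -1.38 ± 0.21, adjusted p = 0.0117, limma). The call was lost without BDC2.5/NOD array 1 or 3. The dimmer probe set of Blk gave -0.16 ± 0.11. By the called one the difference was -0.81 ± 0.21 without peptide, with overlapping strains, and -0.24 ± 0.26 in wild-type cells. Neither was called. Cd72, a coreceptor of B cells, fell by 0.40 ± 0.08 on the log2 scale at intensities of 11.7 to 17.8, which are far below the array medians, and lost its call without any array but BDC2.5/B6g7 array 1. Cxcr4, the receptor for the chemokine CXCL12 that places thymocytes in the thymus, was higher: 90.3, 85.9 and 81.4 in BDC2.5/NOD arrays against 40.9, 43.7 and 38.1 in BDC2.5/B6g7 arrays. That was 2.10-fold (log2 1.07 ± 0.20, adjusted p = 0.0291, limma), and the call was lost when any of the 6 arrays was left out.

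Some called genes handle RNA or chromatin. Gemin5, which recognises small nuclear RNAs for the SMN complex, read 32.9, 28.9 and 26.6 in BDC2.5/NOD arrays, against 74.6, 73.7 and 93.0 in BDC2.5/B6g7 arrays (log2 -1.45 ± 0.15). Hat1, the acetyltransferase of newly made histone H4, read 347, 376 and 325 in BDC2.5/NOD arrays, against 998, 871 and 969 in BDC2.5/B6g7 arrays (log2 -1.44 ± 0.19). Both stayed called without any of the 6 arrays. Mtif2, a mitochondrial translation initiation factor, was 3.15-fold lower in BDC2.5/NOD (log2 -1.66 ± 0.28), and Snhg6, a host gene of small nucleolar RNA, was 2.45-fold lower. Mtif2 lost its call without BDC2.5/B6g7 array 2 or 3 or BDC2.5/NOD array 1 or 3 (adjusted p up to 0.0858), and Snhg6 without any array but BDC2.5/B6g7 array 1 (up to 0.193).

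The opposite direction was seen for Hars, the histidyl-tRNA synthetase, which read 729, 692 and 491 in BDC2.5/NOD arrays and 146, 119 and 280 in BDC2.5/B6g7 arrays. It was 3.70-fold higher (log2 1.89 ± 0.35, adjusted p = 0.0291, limma), with BDC2.5/B6g7 array 3 above the other arrays of its strain. The call was lost without any array but that one, with adjusted p up to 0.164. Of the other called genes of this kind, chosen after their values were seen, the splicing factors Crnkl1 and Usp39 and the ribosome rescue factor Pelo were lower by 1.18, 0.70 and 0.83 on the log2 scale. The other probe set of Usp39 gave 0.09 ± 0.09, and that of Pelo, its brighter one, -0.01 ± 0.24. Usp39 lost its call without any of the 6 arrays, Crnkl1 without any but BDC2.5/NOD array 2, and Pelo without any BDC2.5/NOD array. Mbtd1, a chromatin reader with MBT repeats, was 4.17-fold higher, a call lost without any array but BDC2.5/B6g7 array 2, and its other probe set, named below, did not show this.

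Other called genes act in metabolism. In the oxidative phosphorylation list 23 of 46 were lower (29 without BDC2.5/B6g7 array 3) and 0 called by limma. In the glycolysis list 14 of 21 were lower (8 without that array), with Pdk1 called. Of all 8251 genes by their brightest probe set, 4026 were lower (4455 without that array) and 29 were called lower (0.351%). Tmem14c, needed for haem synthesis in mitochondria of erythroid cells, read 25.4, 30.9 and 118 in BDC2.5/NOD arrays, against 220, 261 and 326 in BDC2.5/B6g7 arrays (log2 -2.56 ± 0.49, adjusted p = 0.0360, limma). BDC2.5/NOD array 3 lay far above the other arrays of its strain and still below all of the B6g7 arrays. The call was lost without any array but BDC2.5/NOD array 3, with adjusted p up to 0.203. Ckb, a creatine kinase, read 151, 160 and 126 in BDC2.5/NOD arrays, against 285, 365 and 382 in BDC2.5/B6g7 arrays (log2 -1.24 ± 0.18), and held without any array. Slc1a5, the glutamine transporter ASCT2, read 29.6, 28.6 and 32.9 in BDC2.5/NOD arrays and 56.0, 66.3 and 94.8 in BDC2.5/B6g7 arrays (log2 -1.22 ± 0.18, adjusted p = 0.0536 without BDC2.5/NOD array 1). Pdk1, a kinase that inhibits the pyruvate dehydrogenase complex, read 102, 110 and 78.1 in BDC2.5/NOD arrays and 209, 257 and 202 in BDC2.5/B6g7 arrays (log2 -1.21 ± 0.19). Its call was lost without BDC2.5/NOD array 1 or 3 or BDC2.5/B6g7 array 2, with adjusted p up to 0.0650.

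Nmrk1, which makes an NAD precursor from nicotinamide riboside, went the other way: 34.4, 46.4 and 37.0 in BDC2.5/NOD arrays against 21.6, 20.8 and 16.98 in BDC2.5/B6g7 arrays (log2 0.98 ± 0.15). This call held without any of the 6 arrays. Glrx, a glutaredoxin that reduces protein thiols, was 2.06-fold higher (log2 1.04 ± 0.19, adjusted p = 0.0259, limma), a call lost without any array but BDC2.5/B6g7 array 3 (adjusted p up to 0.126). Acadl, Suclg2, Nudt19 and Dnajc15, other mitochondrial or peroxisomal genes named after their values were seen, were lower by 0.74 to 1.19 on the log2 scale. Each of these 4 calls was lost in 3 to 5 of the 6 fits with an array left out.

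Of genes of cell division and the cytoskeleton, Kif23, a kinesin of cytokinesis, read 203, 278 and 282 in BDC2.5/NOD arrays and 773, 808 and 534 in BDC2.5/B6g7 arrays. It was 2.76-fold lower in BDC2.5/NOD (log2 -1.46 ± 0.29, adjusted p = 0.0425, limma), a call lost when any of the 6 arrays was left out. Akap9, which anchors protein kinase A at the centrosome and Golgi, read 59.9, 58.2 and 42.5 in BDC2.5/NOD arrays and 99.5, 168 and 174 in BDC2.5/B6g7 arrays (log2 -1.43 ± 0.22). Its adjusted p was 0.0626 without BDC2.5/NOD array 3. Gas2, a growth arrest gene tied to the actin cytoskeleton, was 2.33-fold lower at intensities of 19.2 to 20.3 in BDC2.5/NOD and 37.3 to 60.5 in BDC2.5/B6g7, and lost its call without any array but BDC2.5/B6g7 array 2 (adjusted p up to 0.116).

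The remaining rises named by the rule included Capn3, a calpain protease known from muscle, at 461, 458 and 619 in BDC2.5/NOD arrays and 198, 237 and 154 in BDC2.5/B6g7 arrays (log2 1.39 ± 0.24). Its call was lost without any array but BDC2.5/B6g7 array 2, with adjusted p up to 0.0929. Gm3716, a predicted gene, read 66.9, 66.9 and 56.1 in BDC2.5/NOD arrays and 31.5, 27.4 and 25.4 in BDC2.5/B6g7 arrays (log2 1.17 ± 0.15), and held without any array. Pqlc3, Bex4, Zfp982, Sgcb and Galnt11 were higher by 0.66 to 1.29 on the log2 scale, and each lost its call in 3 to 6 of the 6 fits with an array left out.

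**Figure D2:**
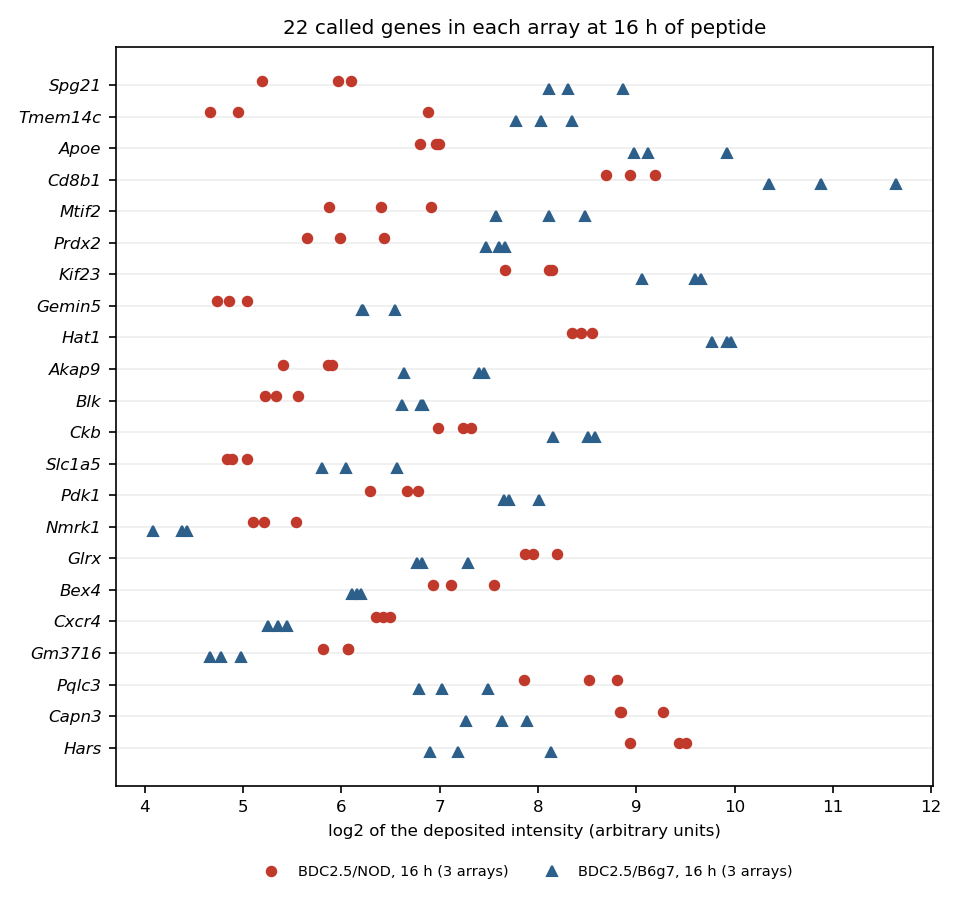
The log2 intensity of 22 called genes in each array at 16 h, red circles for the 3 BDC2.5/NOD arrays above blue triangles for the 3 BDC2.5/B6g7 arrays in each row. In each row the 2 strains' arrays do not overlap, and Tmem14c and Hars show 1 array that lies apart from its own strain.

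The next question was whether these differences were there without peptide, in arrays that shared none with the 16 h comparison. Without peptide limma called 33 probe sets (0.266%), 11 higher (0.0886%) and 22 lower (0.177%) in BDC2.5/NOD, and 428 (3.45%) had an unadjusted p under 0.05. In wild-type cells it called 11 (0.0886%), 2 higher (0.0161%) and 9 lower (0.0725%) in NOD, and 259 (2.09%) had an unadjusted p under 0.05. Of the 61 probe sets called at 16 h, 25 were also called without peptide, which was 41.0% of the 16 h calls and 75.8% of the others, and all 25 ran the same way. In wild-type cells 10 were called, all in the same direction, which was 16.4% of the 16 h calls and 90.9% of the wild-type calls. By sign alone, 60 of the 61 (98.4%) ran the same way without peptide, where 55.4% of all probe sets did. In wild-type cells 55 (90.2%) did, where 52.7% of all probe sets did. The median difference of the 61 in the 16 h direction was 1.04 without peptide and 0.86 in wild-type cells.

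Hars is an example: it read 806, 768 and 356 in BDC2.5/NOD and 118, 110 and 157 in BDC2.5/B6g7 without peptide, and 636 and 437 in wild-type NOD and 119 and 137 in wild-type B6g7. Cd8b1 read 521, 1028 and 579 in BDC2.5/NOD without peptide, against 3132, 2704 and 1850 in BDC2.5/B6g7, and 645 and 690 in wild-type NOD against 3382 and 1745 in wild-type B6g7. Spg21 read 72.8, 85.3 and 58.5 in BDC2.5/NOD without peptide, against 196, 333 and 251 in BDC2.5/B6g7. In all 3 genes the strains did not overlap without peptide, as in 5.6% of all probe sets.

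**Figure D3:**
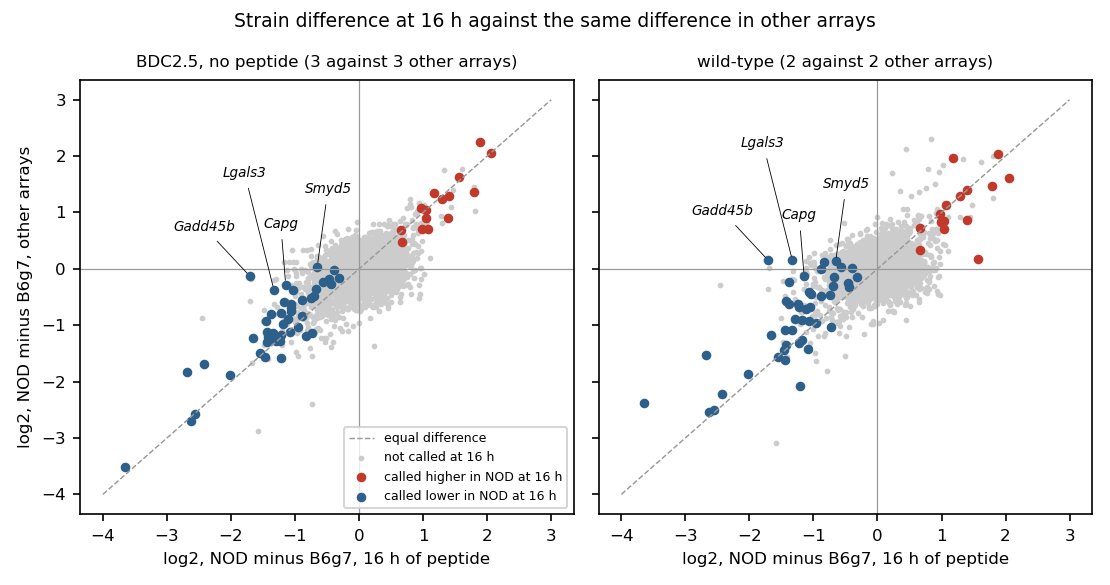
The log2 difference (NOD minus B6g7) at 16 h across against the same difference in other arrays up, BDC2.5 without peptide on the left and wild-type on the right. Of the 61 called probe sets (red 15 higher, blue 46 lower), 60 lie on the same side of 0 without peptide and 55 in wild-type cells, and the 4 labelled genes lie nearer to 0 in the other arrays than at 16 h.

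A small set departed from that pattern. Of the 61, 7 were under 0.5 times as large both without peptide and in wild-type cells, and all 7 were lower in BDC2.5/NOD. The 6 of them that named 1 gene were Gadd45b, Capg, Lgals3, Smyd5, Pprc1 and Cd72, picked out after their values were seen. Testing the difference between the strain differences at 16 h and without peptide, limma called 0 of 12422 probe sets, with 147 (1.18%) at an unadjusted p under 0.05. With the array number as a block it also called 0. Unadjusted p for the 7 lay between 0.0011 and 0.040, and the adjusted p was 0.9996 for each, so none of these departures passed.

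Gadd45b, a stress sensor that p38 and NF-kB signals induce, read 47.8, 48.1 and 44.3 by its dimmer probe set in BDC2.5/NOD arrays at 16 h, against 161, 92.7 and 237 in BDC2.5/B6g7 arrays. Without peptide it read 22.6, 30.7 and 16.4 in BDC2.5/NOD and 30.6, 31.9 and 15.3 in BDC2.5/B6g7, which overlap. The difference at 16 h was log2 -1.71 ± 0.33 (adjusted p = 0.0391, limma), and the brighter probe set gave -0.20 ± 0.29. Leaving out any array but BDC2.5/B6g7 array 2 lost the call.

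Capg, a protein that caps actin filaments and is abundant in macrophages, read 43.0, 38.6 and 44.6 in BDC2.5/NOD arrays at 16 h and 82.4, 85.2 and 114 in BDC2.5/B6g7 arrays (log2 -1.15 ± 0.17, adjusted p = 0.0102, limma). Without peptide it read 51.2, 46.1 and 36.9 in BDC2.5/NOD and 66.4, 52.0 and 45.0 in BDC2.5/B6g7. The call was lost without BDC2.5/NOD array 1 (adjusted p = 0.0519). The called probe set is not the brightest of Capg: the brightest gave -0.32 ± 0.20, and the remaining one 0.13 ± 0.12. Lgals3, the beta-galactoside-binding galectin-3, read 18.7, 19.7 and 21.0 in BDC2.5/NOD arrays and 60.2, 34.4 and 59.1 in BDC2.5/B6g7 arrays (log2 -1.33 ± 0.23), a call lost without any array but BDC2.5/B6g7 array 2 (adjusted p up to 0.129). Without peptide it read 17.3, 20.02 and 17.2 in BDC2.5/NOD and 23.8, 33.8 and 16.0 in BDC2.5/B6g7, which overlap.

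Smyd5, a SET and MYND domain methyltransferase gene, read 31.1, 29.6 and 38.0 in BDC2.5/NOD arrays at 16 h and 52.9, 44.3 and 57.8 in BDC2.5/B6g7 arrays (log2 -0.65 ± 0.12, adjusted p = 0.0269, limma). The 10 arrays without peptide or without the transgene lay between 26.3 and 31.8, below the 3 BDC2.5/B6g7 arrays at 16 h and BDC2.5/NOD array 3. Its other probe sets gave -0.57 (the brightest), -0.17 and 0.01. Pprc1, a coactivator of the PGC-1 family, differed by log2 -0.56 ± 0.10 at intensities of 17.4 to 33.3. Smyd5 lost its call without arrays 1 or 3 of BDC2.5/B6g7 or 1 or 2 of BDC2.5/NOD, and Pprc1 without BDC2.5/B6g7 array 3 or any BDC2.5/NOD array (adjusted p up to 0.163 for both).

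**Figure D4:**
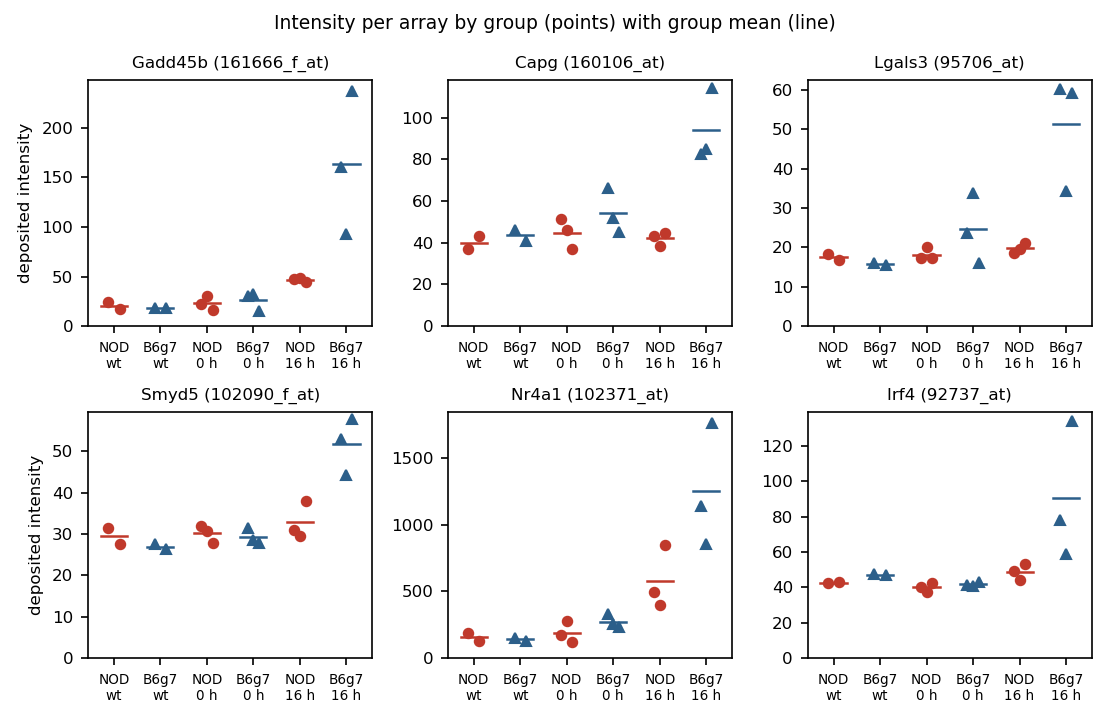
Deposited intensity in each array by group, from wild-type cells (wt) through BDC2.5 without peptide (0 h) to BDC2.5 at 16 h of peptide, NOD (red circles) left of B6g7 (blue triangles) in each pair, with the group mean as a line. Gadd45b, Capg, Lgals3 and Smyd5 stand above the rest in the BDC2.5/B6g7 arrays at 16 h, and Nr4a1 and Irf4 were not called. For Gadd45b, Capg and Smyd5 the called probe set is shown, which is not the brightest of its gene.

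The promoters of Gadd45b, Capg and Lgals3 are shown to see which motifs of receptor-induced factors they hold. By their called probe sets, not the brightest for Gadd45b and Capg, these genes had the largest 16 h differences of the 6. The promoters are the RefSeq windows of build GRCm38.p6, which is the C57BL/6J sequence, from 250 bases before to 50 after the start. All lie on the plus strand: chr10:80929841-80930140, chr6:72549397-72549696 and chr14:47373610-47373909. Capitals mark a match to the Egr motif GCGNGGGCG, read on both strands.
Gadd45b: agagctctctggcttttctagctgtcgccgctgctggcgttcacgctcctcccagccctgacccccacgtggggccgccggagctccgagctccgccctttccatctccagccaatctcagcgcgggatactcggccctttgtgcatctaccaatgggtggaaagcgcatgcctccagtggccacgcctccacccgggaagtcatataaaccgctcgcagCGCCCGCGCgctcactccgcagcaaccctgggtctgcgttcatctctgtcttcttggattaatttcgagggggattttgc
Capg: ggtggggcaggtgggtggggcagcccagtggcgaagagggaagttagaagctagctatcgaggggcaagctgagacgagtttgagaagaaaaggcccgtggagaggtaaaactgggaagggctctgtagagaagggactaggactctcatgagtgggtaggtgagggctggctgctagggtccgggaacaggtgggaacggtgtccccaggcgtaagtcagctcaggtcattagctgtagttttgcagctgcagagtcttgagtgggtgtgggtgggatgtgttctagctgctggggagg
Lgals3: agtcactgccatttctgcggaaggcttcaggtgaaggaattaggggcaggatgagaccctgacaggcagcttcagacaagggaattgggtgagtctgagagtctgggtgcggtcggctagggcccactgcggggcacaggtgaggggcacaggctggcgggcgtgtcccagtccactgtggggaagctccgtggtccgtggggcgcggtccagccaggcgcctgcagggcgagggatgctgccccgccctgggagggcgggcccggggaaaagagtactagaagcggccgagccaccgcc
The Egr motif matched in the Gadd45b window, on the minus strand from base 221, and in neither of the other windows. AP-1 (TGANTCA) and NF-kB (GGG, any 3 bases, then TTCC) matched in none of the 3. Over 32851 RefSeq promoters of this length the Egr motif is held by 5.55%, AP-1 by 7.81% and NF-kB by 5.56%. The sequences describe the C57BL/6J strain, and the NOD sequence was not used here.

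Among genes known to respond to a receptor signal, none of the fixed set of 20 was called by its brightest probe set. Nr4a1 (Nur77), an orphan nuclear receptor induced in negative selection, read 495, 398 and 847 in BDC2.5/NOD arrays, against 1136, 854 and 1759 in BDC2.5/B6g7 arrays. The strains did not overlap, and the difference of log2 -1.12 ± 0.35 missed the threshold (adjusted p = 0.447, limma). Irf4, a transcription factor induced in step with receptor signal strength, read 49.3, 44.3 and 53.2 in BDC2.5/NOD arrays and 77.9, 58.7 and 134 in BDC2.5/B6g7 arrays. It gave log2 -0.80 ± 0.21 and did not pass (adjusted p = 0.216, limma). Pdcd1 (PD-1), an inhibitory receptor, gave -1.12 ± 0.38 and overlapped. Bcl2l11 (Bim), a death gene of negative selection, gave -0.60 ± 0.26 and overlapped too.

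Other genes of the set lay nearer to 0 or above it. Egr1 gave 0.13 ± 0.38, Egr2 0.50 ± 0.49 and Nab2 0.03 ± 0.18. Cd5, a brake on receptor signals whose level tracks signal strength, gave -0.12 ± 0.47, and Itm2a, linked to thymocyte selection, gave -0.22 ± 0.31. Fas, a death receptor, read 199, 220 and 171 in BDC2.5/NOD arrays and 69.4, 141 and 155 in BDC2.5/B6g7 arrays (log2 0.77 ± 0.31, adjusted p = 0.743, limma). Rag1 gave 0.52 ± 0.59, Rag2 0.52 ± 0.37 and Dntt 0.51 ± 0.27, all of them genes of receptor rearrangement, and each with overlapping strains. The standard errors are as large as many of these differences.

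The gene lists showed how members leaned, by 1 brightest probe set per gene. Of 8251 genes, 4225 were higher in BDC2.5/NOD, the median difference was 0.00, and 11 were called higher (0.133%) and 29 lower (0.351%). Genes typical of double-positive cells leaned upward: 28 of 32 were higher in BDC2.5/NOD, with a median of 0.36 (0.26 without BDC2.5/B6g7 array 3), and the medians were 0.11 without peptide and 0.05 in wild-type cells. Their mean log2 level at 16 h was 8.62, 8.74 and 8.68 in BDC2.5/NOD arrays and 8.31, 8.66 and 8.30 in BDC2.5/B6g7 arrays. The strains overlapped, since BDC2.5/B6g7 array 2 lay above BDC2.5/NOD array 1, while BDC2.5/NOD was lower in 0 of 3 same-numbered pairs. Over the alternatives run, the list median ranged from 0.14 to 0.47. Cxcr4 was called higher and Cd8b1 lower. Without BDC2.5/B6g7 array 3, 25 of the 32 were higher and Cxcr4 was not called. Cd3g, a chain of the receptor complex, read 1798, 2191 and 2181 in BDC2.5/NOD arrays and 960, 912 and 1411 in BDC2.5/B6g7 arrays (log2 0.93 ± 0.22, adjusted p = 0.120, limma). Ldhb, a lactate dehydrogenase chain, gave 1.02 ± 0.25 and Satb1, a chromatin organiser of thymocytes, 0.38 ± 0.22. In this list 6 of 32 were higher at an unadjusted p under 0.05 (18.8%), where 2.67% of all genes were.

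Ribosome biogenesis genes leaned downward. Of 43 measured, 36 were lower in BDC2.5/NOD, with a median of -0.33. The only called member was Pprc1, the PGC-1 family coactivator named above, at intensities of 17.4 to 33.3, below the array medians. Without BDC2.5/B6g7 array 3, 29 were lower, the median was -0.19 and 0 were called by limma. Without peptide the median was -0.08, and in wild-type cells 0.03. Their mean log2 level was 7.31, 7.27 and 7.54 in BDC2.5/NOD arrays and 7.50, 7.49 and 8.10 in BDC2.5/B6g7 arrays, lower in BDC2.5/NOD in 3 of 3 same-numbered pairs, while BDC2.5/NOD array 3 lay above BDC2.5/B6g7 arrays 1 and 2. Polr1a, the catalytic subunit of RNA polymerase I, read 78.3, 99.0 and 74.6 in BDC2.5/NOD arrays and 128, 111 and 213 in BDC2.5/B6g7 arrays (log2 -0.80 ± 0.24, adjusted p = 0.404, limma). Srm, the spermidine synthase, gave -0.72 ± 0.24, and Grwd1, a ribosome assembly factor, -0.70 ± 0.24. Of the 43, 10 were lower at an unadjusted p under 0.05 (23.3%), where 3.01% of all genes were.

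Interferon response genes turned with 1 array. With all arrays 30 of 34 were lower in BDC2.5/NOD and the median was -0.29, but without BDC2.5/B6g7 array 3, 21 were higher and the median was 0.12. Their mean log2 level was 6.56, 6.78 and 6.61 in BDC2.5/NOD arrays and 6.58, 6.36 and 8.10 in BDC2.5/B6g7 arrays at 16 h. Without peptide the arrays read 6.22, 6.21 and 6.34 in BDC2.5/NOD and 6.59, 6.96 and 6.86 in BDC2.5/B6g7. Ifi204, an interferon-induced DNA sensor, went against the list: it read 331, 384 and 380 in BDC2.5/NOD arrays and 94.2, 61.2 and 294 in BDC2.5/B6g7 arrays. It gave log2 1.61 ± 0.47 (adjusted p = 0.334, limma), and 2.26 without BDC2.5/B6g7 array 3, where it was called. It gave 1.76 without peptide and 1.90 in wild-type cells.

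The remaining lists held few calls. Activation receptors and cytokines had 24 of 32 lower (median -0.13), and 22 of 32 without BDC2.5/B6g7 array 3. At an unadjusted p under 0.05, 8 of the 32 (25%) were lower, where 3.01% of all genes were. Type 1 diabetes (Idd) candidate genes had 34 of 45 lower (median -0.11, with Cxcr4 called higher and Cd72 lower). At the same unadjusted threshold 8 of the 45 (17.8%) were lower. Without BDC2.5/B6g7 array 3, 29 of the 45 were lower, the median was -0.07 and limma called 0. Chaperones had 29 of 40 lower (median -0.17, and -0.03 without BDC2.5/B6g7 array 3). Of these, Hspa1a, an inducible Hsp70, read 41.2, 35.1 and 43.1 in BDC2.5/NOD arrays and 76.7, 61.6 and 198 in BDC2.5/B6g7 arrays (log2 -1.30 ± 0.30, adjusted p = 0.117, and 0.0488 with the block in 12 arrays). Of 30 MHC and antigen presentation genes 21 were lower (median -0.14, and -0.08 without BDC2.5/B6g7 array 3) and 0 called by limma. The median of the TCR immediate-early genes was -0.04, and 0.03 without BDC2.5/B6g7 array 3.

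Among p53 targets, 12 of 18 were higher (median 0.08, and 0.22 without BDC2.5/B6g7 array 3), with 0 called by limma. At an unadjusted p under 0.05, 5 (27.8%) were higher, where 2.67% of all genes were. Gadd45a, which slows the cell cycle after DNA damage, read 114, 131 and 215 in BDC2.5/NOD arrays and 56.8, 68.1 and 84.1 in BDC2.5/B6g7 arrays (log2 1.10 ± 0.37, adjusted p = 0.532, and 0.00605 with the block in 12 arrays). Cdkn1a (p21), an inhibitor of cyclin-dependent kinases, gave 0.91 ± 0.27 (adjusted p = 0.409, and 0.0257 with that block). Casp6, an effector caspase of the pro-apoptotic list, read 201, 193 and 152 in BDC2.5/NOD arrays and 102, 118 and 85.8 in BDC2.5/B6g7 arrays (log2 0.84 ± 0.18, adjusted p = 0.0782, and 0.0234 with that block).

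**Figure D5:**
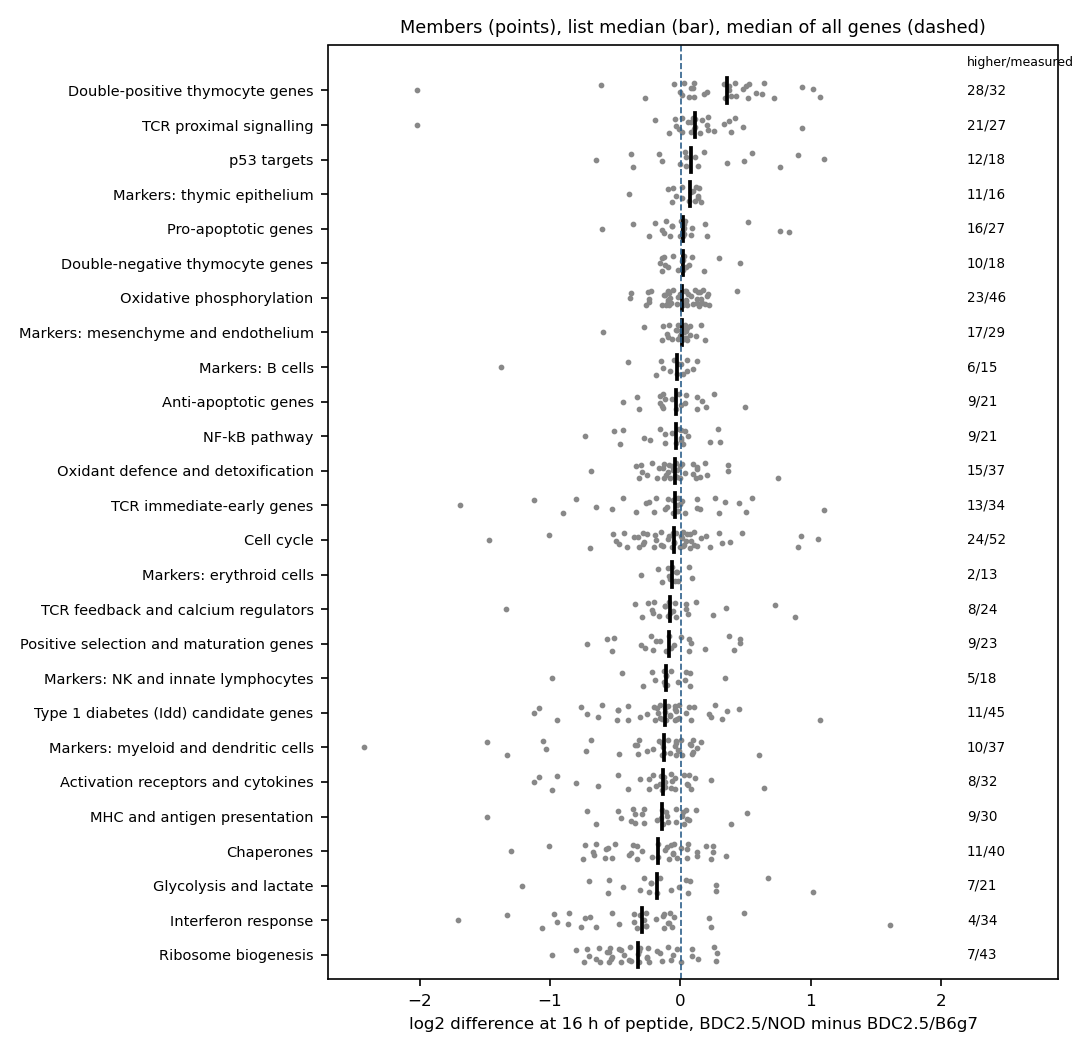
The log2 difference at 16 h (BDC2.5/NOD minus BDC2.5/B6g7) of each member, as a point, for 26 gene lists, with the list median as a bar and the median of all 8251 genes as a dashed line. The number at the right of each row is how many of the measured members were higher in BDC2.5/NOD; double-positive genes (28 of 32) lie at the top and ribosome biogenesis (7 of 43) at the bottom.

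Markers of other cells were read beside the calls, since in bulk RNA fewer cells of a type and less RNA per cell cannot be told apart. Of 37 myeloid and dendritic markers, 27 were lower in BDC2.5/NOD, with a median of -0.12, and 8 (21.6%) were lower at an unadjusted p under 0.05, where 3.01% of all genes were. Their summed intensity was 2438 to 2753 in BDC2.5/NOD arrays and 3094 to 3922 in BDC2.5/B6g7 arrays at 16 h, without overlap. Without Apoe, left out after its values were seen, the other 36 summed to 2326 to 2629 in BDC2.5/NOD arrays and 2412 to 3418 in BDC2.5/B6g7 arrays, which overlap. Without peptide the sum over all 37 was 2424 to 2926 in BDC2.5/NOD and 2434 to 2926 in BDC2.5/B6g7, which overlap. Apoe, the lipid carrier made by macrophages, read 127, 111 and 125 in BDC2.5/NOD arrays and 557, 971 and 505 in BDC2.5/B6g7 arrays, and was 5.36-fold lower (log2 -2.42 ± 0.36, adjusted p = 0.0102, limma). Without BDC2.5/NOD array 1 its adjusted p was 0.0519. Without peptide Apoe read 163, 114 and 138 in BDC2.5/NOD and 597, 533 and 266 in BDC2.5/B6g7 (log2 -1.68 ± 0.36). In wild-type cells it read 102 and 124 in NOD and 822 and 328 in B6g7 (log2 -2.21 ± 0.45). Apoe was called in neither of these comparisons, and the strains overlapped in neither. Lgals3 was the other called member.

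Other members of the list did not pass. Tyrobp, the adaptor DAP12, read 34.9, 29.6 and 41.3 in BDC2.5/NOD arrays and 56.9, 60.4 and 51.6 in BDC2.5/B6g7 arrays (log2 -0.69 ± 0.17, adjusted p = 0.170, limma). Lyz2, the lysozyme of macrophages, gave -1.03 ± 0.34. Of 2 further members chosen after their values were seen, Csf1r, the receptor of macrophage growth factor, gave -0.01, and Adgre1 (F4/80) gave -0.04, all arrays below the array medians. No intensity of the table is 0, and the lowest is 7.77, so absence cannot be read from it. The part of such cells in the differences of Apoe, Lgals3 and Capg was not tested.

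Of 15 B cell markers 9 were lower in BDC2.5/NOD, with a median of -0.03, and Blk and Cd72 were called. Without BDC2.5/B6g7 array 3, 12 were lower, the median was -0.08 and Cd72 was not called. Blnk, another member, gave -0.13 ± 0.11 without passing, and its strains did not overlap, as in 11.8% of all probe sets. Cd79a and Cd79b, the signalling chains of the B cell receptor, were picked as a pair after their values were seen. They gave -0.05 and 0.00, with overlapping strains. By mean log2 level the list was lower in BDC2.5/NOD in 3 of 3 same-numbered pairs. The summed intensity was 1398 to 2305 in BDC2.5/NOD arrays and 1844 to 2050 in BDC2.5/B6g7 arrays. Among markers of NK and innate lymphocytes, erythroid cells, thymic epithelium, and mesenchyme and endothelium limma called 0 by the brightest probe set, with 2 members lower at an unadjusted p under 0.05, Dcn and Cd160. Of 13 erythroid markers 11 were lower (median -0.06, and -0.14 without BDC2.5/B6g7 array 3). Of 18 NK and innate lymphocyte markers 13 were lower (median -0.11). Of 16 thymic epithelium markers 5 were lower, and of 29 mesenchyme and endothelium markers 12 (23 without that array). Of all 8251 genes, 4026 were lower (4455 without that array). Col1a2, a collagen chain of the mesenchyme list, was called by its dimmer probe set, which read 126, 189 and 85.0 in BDC2.5/NOD arrays and 53.6, 37.6 and 38.6 in BDC2.5/B6g7 arrays. That was log2 1.56 ± 0.30 (adjusted p = 0.0374, limma, lost without any array but BDC2.5/NOD array 3), and the brighter probe set gave -0.28 ± 0.19. The called probe set gave 1.63 ± 0.30 without peptide, also called, and 0.17 ± 0.37 in wild-type cells. The part of such cells in the Col1a2 difference was not tested.

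A last comparison set the called probe sets beside other probe sets of the same genes. Of the 52 genes, 19 had 25 others, of which 16 ran in the same direction, 9 in the opposite one, and 0 were called by limma. Prdx2, a thiol peroxidase, read 63.4, 86.7 and 50.3 in BDC2.5/NOD arrays and 194, 177 and 203 in BDC2.5/B6g7 arrays by the called probe set (log2 -1.55 ± 0.19). Its brightest probe set gave 0.12 ± 0.25. Glo1, the glyoxalase, gave -1.34 ± 0.24 by the called probe set and 0.04 ± 0.18 by the brighter one, and Mbtd1 gave 2.06 ± 0.34 and -0.21 ± 0.65. For Capn3 all 3 probe sets ran together, at 1.39, 1.28 and 1.29. Hat1 gave -0.37 ± 0.57 by its other probe set. Probe sets whose names carry a suffix, for shared probes or for fewer probes than usual, were called in 0.392% of cases and plain ones in 0.52%.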

How the data were processed

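The authors deposited linear intensities, 1 for each probe set of 16 Affymetrix mouse arrays. Their scaling, background correction and summary are steps not given in the sources used here. In all, 66 control probe sets were left out and 12422 tested. By the platform annotation 10833 named 1 gene (8251 distinct genes), 396 several and 1193 none. Gene IDs matched RefSeq for 10817 of these, and 0 symbols changed.

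Intensities were taken to log2 with no pseudocount. limma 3.58.1 in R 4.3.3 fitted all 16 arrays with 6 group means and an intensity trend (10 residual and 3.60 prior degrees of freedom). All tests were two-sided, with Benjamini-Hochberg adjustment per comparison. The fit was run on simulated data with noise drawn separately for each array. These lacked the deviations that same-numbered arrays share, so they do not give the error rate in the real arrays.

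Named genes were, among called probe sets that name 1 gene and are its brightest, up to 15 rises and 15 falls without overlap, up to 4 members of each of 26 lists by smallest p, and 20 fixed genes. The members and lists were chosen with earlier results of these data known. Other called genes were named after their values were seen. The number of arrays limits the precision.

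The titles number the arrays. At 16 h, deviations from the group means correlated across probe sets by 0.577, 0.234 and 0.569 between same-numbered arrays of the strains, so the numbers were taken to pair them; BDC2.5/NOD array 2 correlated slightly better with BDC2.5/B6g7 array 1 (0.252). Deviations cancel within a group, and the labels do not state a pairing. Blocked fits, other scalings, filters, floors and left-out arrays were the alternatives.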

Additional observations from a re-analysis of the deposited data

How the results depend on the processing

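The count at 16 h (61) became 129 and 156 with the replicate block in 16 and in the 12 BDC2.5 arrays, 22 with the 6 compared arrays alone, 362 (195 higher, 167 lower) with array weights, and 36 without the 6 arrays that carry the last number of their group (3 in BDC2.5, 2 in wild-type). Leaving out 1 array gave 15 to 42. Without peptide (33) the block gave 69 and 91, array weights 63, the compared arrays alone 0, and 1 array left out 15 to 24. In wild-type cells (11) the block gave 32, the compared arrays alone 0, and 1 array left out 2 to 7, with the lone array assumed to vary like the other groups. The causes were not tested, apart from the fewer arrays in some fits. The test of the difference between peptide states stayed at 0 under all alternatives run. Quantile scaling gave 63 at 16 h, equal array medians 51, a mean intensity of at least 50 gave 42, a floor of 20 gave 46, and no trend 46.

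All 61 kept their direction under each alternative that gave a value, and 10 stayed called under each. Cd72, Abcb1b and Ankib1 lie wholly under the floor of 20 and have no value there. Of 2481 single-gene alternatives, 297 lost a call and 42 gained one. The sign turned in 26, over 12 probe sets, none of which was called with all arrays or in that alternative. Called probe sets with a mean intensity under 50 numbered 19, so their levels are the least certain.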

Other observations

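AI506816, an expressed sequence with no known role, was read by 2 probe sets that ran against each other between the strains. By the called probe set it read 95.9, 96.5 and 101 in BDC2.5/NOD arrays at 16 h and 29.6, 26.8 and 28.6 in BDC2.5/B6g7 arrays (log2 1.79 ± 0.12, adjusted p = 7.98e-06, limma). The other probe set gave -1.50 ± 0.32 (adjusted p = 0.0708). Without peptide they gave 1.36 and -0.92, and in wild-type cells 1.46 and -0.87.

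The probe set with the largest difference at 16 h names no gene in the platform annotation. It read 21.5, 18.7 and 21.9 in BDC2.5/NOD arrays and 227, 184 and 420 in BDC2.5/B6g7 arrays, and was 12.6-fold lower in BDC2.5/NOD (log2 -3.65 ± 0.37). It gave -3.51 without peptide and -2.38 in wild-type cells. A probe set shared by Polr2k, a small subunit of the RNA polymerases, and LOC100862456 was 6.18-fold lower at 16 h and gave log2 -2.71 without peptide and -2.53 in wild-type cells. All these calls held without any of the 6 arrays.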
